A study of Caenorhabditis elegans with 2 samples.

Results

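The peaks described here lie beside genes for transfer RNAs (tRNA), small nuclear RNAs (snRNA) and small nucleolar RNAs (snoRNA). A peak was taken as a member when its summit lay within 200 bp of a gene that Ensembl annotates with 1 of these 3 biotypes on WBcel235, the same assembly as ce11. The autosomes gave 191 such peaks, fewer than the 200 asked for, so the 87 on the X chromosome were added. The 278 members came from a list of 4384 peaks thresholded by irreproducible discovery rate (IDR), a step that keeps regions ranking alike in replicates. Membership rested on position alone, and no strength of a peak was used to choose it.

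The list comes from a chromatin immunoprecipitation experiment with sequencing (ChIP-seq) on the T-box transcription factor TBX-2. Whole Caenorhabditis elegans hermaphrodites of strain OP159 were used, of genotype unc-119(ed3) III with the transgene wgIs159, which adds TBX-2 carrying a C-terminal GFP-FLAG tag. They were L1 larvae taken 6 hours after synchronization of starved larvae, and the tagged protein was pulled down with anti-GFP antibody. Both samples form 1 group, biological replicates 1 and 2, so there is no second condition. The control reads were not analysed here. Because tissues were not separated, a peak may come from a few cells or from many. The tagged protein is a transgene copy in 1 line, and the labels do not give its level relative to the native protein.

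RNA polymerase III reads tRNA genes from the A box and the B box, a pair of promoter elements inside the gene that the factor TFIIIC recognises before TFIIIB is placed just upstream of the start. Most snRNA genes instead carry an upstream element read by the snRNA activating protein complex, and they are transcribed by RNA polymerase II or III. In C. elegans the snRNA class includes the spliced leader RNAs. SL1 is spliced onto the first exon of many messages, and SL2, made from the sls-2 genes, onto downstream genes of operons. snoRNAs guide chemical changes on ribosomal RNA, and many sit in introns of protein-coding genes. TBX-2 itself is known for its role in making pharyngeal muscle.

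Upstream sequences of 6 snRNA genes with strong peaks are shown first, to let a pair of SL2 genes be compared and to show where a shared word lies. They were chosen after their values and sequences were seen and are not simply the strongest, since sls-2.4 and C52E4.8, which had stronger peaks than some of these, are not shown. Each is the 100 bases before the annotated gene start on ce11, read 5′ to 3′ on the strand of the gene from the RefSeq genome of WBcel235. They lie at chrII:5844765-5844864 (+) for sls-2.1, chrII:5543498-5543597 (+) for sls-2.2, chrIII:12250365-12250464 (+) for sls-2.8, chrIII:10989579-10989678 (+) for W05B2.8, chrIV:9444542-9444641 (+) for F38E11.10 and chrII:12944968-12945067 (−) for sup-6. In sls-2.1 and sls-2.2, capitals mark stretches of at least 10 bases that are the same at the same distance from the gene. In the other genes they mark the word CGNAACCC.
sls-2.1: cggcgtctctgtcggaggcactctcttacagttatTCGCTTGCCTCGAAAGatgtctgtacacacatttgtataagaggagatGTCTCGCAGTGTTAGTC
sls-2.2: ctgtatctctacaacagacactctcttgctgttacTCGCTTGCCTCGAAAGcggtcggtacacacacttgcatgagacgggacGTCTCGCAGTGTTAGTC
sls-2.8: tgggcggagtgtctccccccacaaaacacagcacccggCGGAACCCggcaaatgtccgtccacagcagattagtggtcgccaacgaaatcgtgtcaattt
W05B2.8: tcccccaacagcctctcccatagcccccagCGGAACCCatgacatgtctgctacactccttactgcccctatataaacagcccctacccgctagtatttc
F38E11.10: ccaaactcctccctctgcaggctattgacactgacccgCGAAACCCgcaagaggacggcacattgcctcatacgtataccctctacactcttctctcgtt
sup-6: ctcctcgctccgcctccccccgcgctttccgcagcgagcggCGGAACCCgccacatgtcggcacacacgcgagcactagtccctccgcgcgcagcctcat

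The 2 SL2 sequences matched at 79 of 100 positions, with marked stretches at −65 to −50 and at −17 to −1 bases before the gene. Neither holds CGNAACCC, whereas sls-2.8 does. Upstream sequences of snoRNA genes with a peak are shown next because they carry either that same word or the letters of a B box core, GTTCNANNC, which tRNA genes hold inside the gene. Capitals mark those words. They lie at chrII:15025894-15025993 (−) for Y53F4B.47, chrV:8500479-8500578 (+) for ZK994.7, chrII:10840217-10840316 (+) for M106.6 and chrIII:8227763-8227862 (+) for C02F5.15.
Y53F4B.47: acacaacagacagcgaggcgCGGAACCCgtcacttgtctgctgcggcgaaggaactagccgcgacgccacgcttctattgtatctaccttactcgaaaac
ZK994.7: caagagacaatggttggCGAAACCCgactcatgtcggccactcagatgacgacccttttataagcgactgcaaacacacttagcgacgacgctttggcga
M106.6: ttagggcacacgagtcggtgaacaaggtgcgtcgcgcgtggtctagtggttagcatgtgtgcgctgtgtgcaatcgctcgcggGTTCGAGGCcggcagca
C02F5.15: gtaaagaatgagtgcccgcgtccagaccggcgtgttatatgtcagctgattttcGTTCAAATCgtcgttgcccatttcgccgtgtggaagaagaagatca

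For tRNA genes, a gene and upstream stretches are shown, since summits lay upstream while the known promoter elements lie inside. C53C7.t1, a tRNA-Ser gene, is at chrX:13046578-13046659 (+) and has its B box core in capitals. The upstream stretches are the 100 bases before F41D9.t3 at chrX:8404399-8404498 (+), before C28G1.t1 at chrX:8836013-8836112 (+) and before C53C7.t1 at chrX:13046478-13046577 (+), with GAGAGA, on either strand, in capitals.
C53C7.t1 gene: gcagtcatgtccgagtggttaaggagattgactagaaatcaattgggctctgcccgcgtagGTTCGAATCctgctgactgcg
F41D9.t3 upstream: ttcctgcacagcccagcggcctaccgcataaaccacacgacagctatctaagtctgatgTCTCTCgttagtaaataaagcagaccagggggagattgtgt
C28G1.t1 upstream: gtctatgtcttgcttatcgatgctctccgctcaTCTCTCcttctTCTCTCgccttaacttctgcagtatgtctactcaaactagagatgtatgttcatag
C53C7.t1 upstream: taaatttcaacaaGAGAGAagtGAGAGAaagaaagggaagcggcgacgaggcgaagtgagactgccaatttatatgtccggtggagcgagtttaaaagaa

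Members made up 6.34% of the IDR list (278 of 4384), while bases within 200 bp of such a gene make up 0.519% of the 6 nuclear chromosomes. On the autosomes the share was 5.43% of peaks (191 of 3517, 95% exact Clopper-Pearson interval 4.70 to 6.23) against 0.461% of bases. On X it was 10.0% of peaks (87 of 867, interval 8.12 to 12.2) against 0.790% of bases, so the ratio of peaks to bases was 11.8 on autosomes and 12.7 on X. tRNA genes alone accounted for 167 members, snoRNA genes for 87 and snRNA genes for 23, and 1 lay between a tRNA and an sls-2 gene. Members numbered 39 of 752 peaks on chromosome I, 41 of 635 on II, 34 of 739 on III, 41 of 711 on IV and 36 of 680 on V. These intervals cover the counting of peaks or genes only, since the lists hold no read counts and the depth is unknown.

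Read from the genes, 287 of the 1087 annotated genes of the 3 classes had a peak. Among tRNA genes 179 of 612 did (29.2%, interval 25.7 to 33.0), 92 of 336 on autosomes (27.4%) and 87 of 276 on X (31.5%). Among snoRNA genes 88 of 346 did (25.4%, interval 20.9 to 30.4), 84 of 313 on autosomes (26.8%) and 4 of 33 on X (12.1%, upper bound 28.2). Among snRNA genes 20 of 129 did (15.5%, interval 9.73 to 22.9), 1 of them among the 3 on X. The same count over protein-coding genes, which are far longer, was 11.6% on autosomes and 12.7% on X. Within 200 bp of the 5′ end of a protein-coding gene it was 6.57% on autosomes and 5.16% on X. The tRNA shares on autosomes and X and the autosomal snoRNA share lay above the whole-gene protein-coding share, with intervals apart from it, while the snoRNA interval on X includes it. The snRNA interval includes the whole-gene share but lies above the 5′ end share. Over peaks above the median signal of the list, an alternative that moved the tRNA value by over 1.5 times, autosomal shares were 10.4% of tRNA (interval 7.36 to 14.2), 11.1% of snRNA and 19.8% of snoRNA genes, against 6.58% of protein-coding genes and 4.01% of their 5′ ends. Over all IDR peaks, other annotated classes had 4.60% of 261 miRNA genes, 20 of 2128 pseudogenes and 0.267% of 15363 piRNA genes with a peak. None of 20 rRNA genes had one, a count that allows up to 16.8%. Long intergenic noncoding RNA (lincRNA) genes stood at 14.4% (28 of 194, interval 9.81 to 20.2), close to the snRNA share and with overlapping intervals. Other ncRNA genes stood at 11.3% of 7764.

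**Figure D1:**
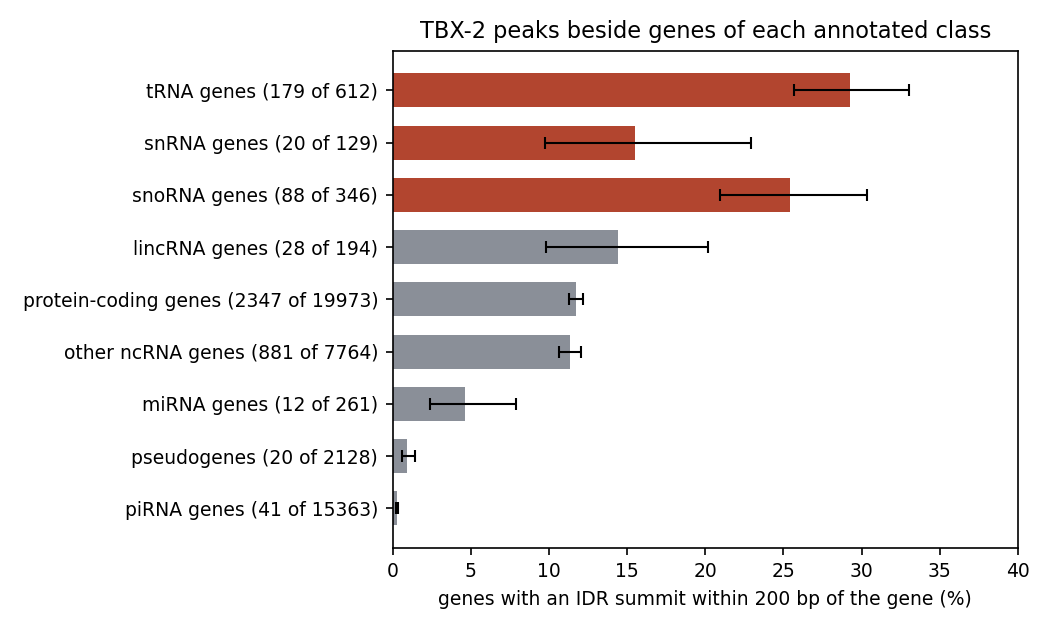
Share of annotated genes with an IDR summit within 200 bp, in percent, by class; red bars are the 3 small RNA classes, grey bars other classes, and error bars are 95% exact intervals. tRNA genes stood at 29.2%, snRNA genes at 15.5% and snoRNA genes at 25.4%, against 11.8% of all protein-coding genes.

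The 5 strongest peaks beside snRNA genes, ranked by the mean of their ranks in both replicates, were sls-2.4, sls-2.1, sls-2.2, sls-2.8 and W05B2.8. Peak signal is the authors' own measure of strength, on a scale they do not state, and is used here only to describe and rank regions within a list. sls-2.4 (chromosome I, 4172206 to 4172315) had a signal of 1550 in the IDR list, rank 3 of 4384, with 579 in replicate 1 and 965 in replicate 2. sls-2.1 (chromosome II, 5844865 to 5844974) had 1416, rank 8, with 522 and 896 in replicates 1 and 2, and sls-2.2 on the same chromosome had 1234, rank 15, with 445 and 786. All 3 ranked at 20 or better in each replicate's own list. Their summits lay 50, 43 and 38 bp upstream of the gene.

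sls-2.8 (chromosome III) followed with 667 in the IDR list, 260 in replicate 1 and 406 in replicate 2. W05B2.8, an snRNA gene in an intron of the dynein heavy chain gene dhc-4, had 610, with 248 in replicate 1 and 360 in replicate 2, and is 1 of 14 genes of identical sequence. In both, the summit stood 49 bp upstream of the gene, between the gene and the word marked in capitals above. C52E4.8 (signal 604) and its neighbour snr-4, which encodes an Sm protein that coats spliceosomal snRNAs, share a summit 59 bp upstream of the snRNA gene and 336 bp from the nearest coding start.

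Among the 18 sls-2 genes 8 had a peak, the others being sls-2.9 (182), sls-2.7 (175), sls-2.14 (131) and sls-2.17 (86.3). In the longer pooled list of 30000 peaks and background regions, 14 of the 18 had a region beside them, against 37 of all 129 snRNA genes (28.7%), 160 of 346 snoRNA genes (46.2%) and 362 of 612 tRNA genes (59.2%). The share of protein-coding genes in this longer list is not given here. These counts thus have no background beside them, and they do not show how widely such genes are bound. None of the 12 sls-1 genes, the SL1 genes, had a peak, which allows a share of up to 26.5%. They form a repeat on chromosome V (17118154 to 17132107), and within 1000 bp of it the pooled list held 0 regions. The handling of reads from repeated sequence is not stated by the submitters, and its part in this absence was not tested, so the interval covers counting only. smY genes, small RNAs tied to trans-splicing that the annotation lists as snoRNA, had 2 of 12 with a peak, smy-2 (298) and smy-3 (110).

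The remaining snRNA genes are mostly unnamed and were grouped by shared 10-base words. A group of 13 genes with a median length of 165 bases holds sup-6 and sup-39, known as U1 snRNA genes in which suppressor mutations were found, and 3 of its genes had a peak. sup-6 had a signal of 525 in the IDR list, 185 in replicate 1 and 336 in replicate 2. sup-39, whose span also holds the annotated mir-1831, had 208, 79.2 and 121, and T08G5.11 had 84.3, 28.8 and 53.2. The annotation lists mir-1831 as an snRNA gene of its own, so both it and sup-39 are counted among snRNA genes with a peak, through the same summit. Of the 24 genes grouped with F54D8.7 (median length 102 bases) 3 had a peak, of the 20 grouped with F08G2.10 (187 bases) 1, of the 12 grouped with F32B5.9 (122 bases) 2, and of the 5 grouped with C52E4.8 (144 bases) 1. Shares thus ran from 5.00% to 23.1% in the groups of 5 or more genes other than SL1 and SL2, with wide and overlapping intervals.

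A second summit lay on the far side of the gene at 5 of the strongest snRNA peaks. At sls-2.4 it stood 154 bp downstream of the gene start with a signal of 312, at sls-2.1 172 bp (181) and at sls-2.2 195 bp (272). At C52E4.8 it stood 149 bp downstream (113) and at F38E11.10 151 bp downstream (127). All 5 lay past the end of the gene and were weaker than their upstream partner. The only other gene with 2 summits was the tRNA gene B0350.t1.

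**Figure D2:**
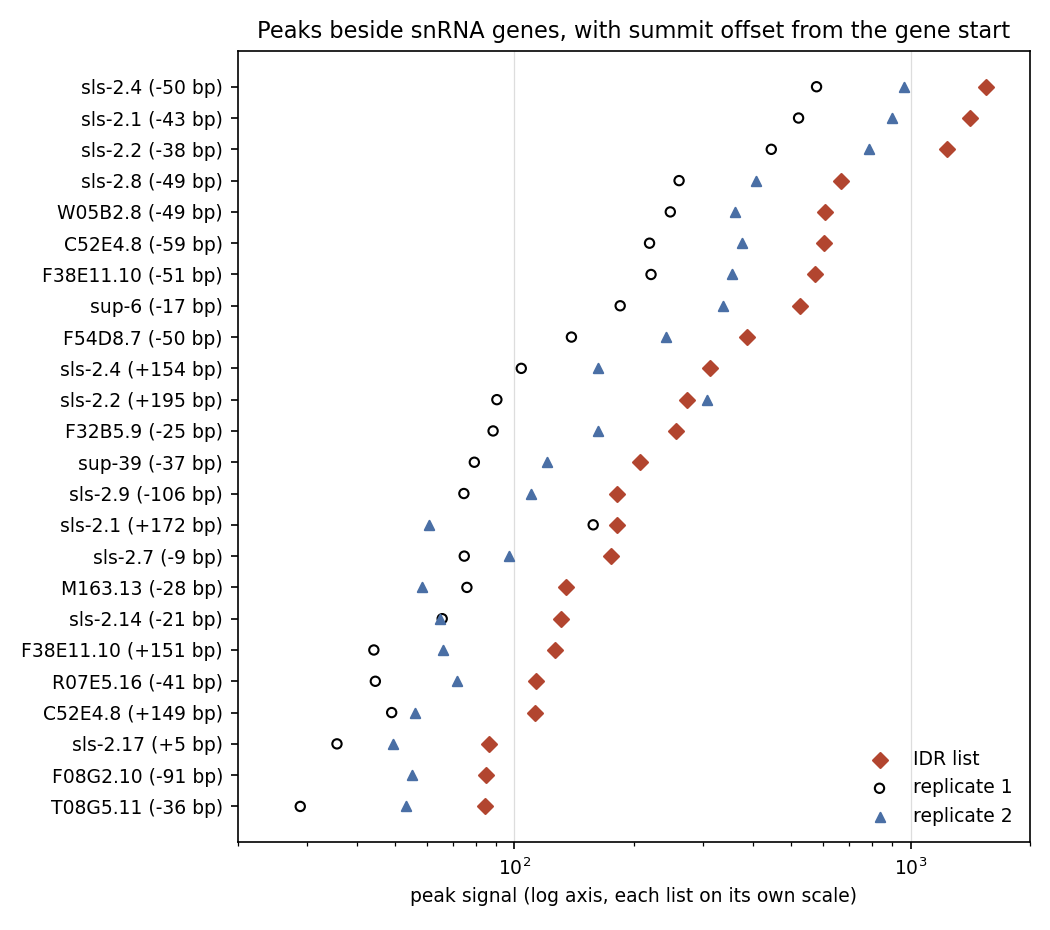
Signal of the 24 peaks beside snRNA genes in the IDR list and in each replicate's own list (log axis); labels give the gene and the summit position relative to its start. Signals ran from 1550 at sls-2.4 to 84.3 at T08G5.11, and F08G2.10 had no replicate 1 match within 100 bp.

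Peaks beside snoRNA genes were led by Y53F4B.47 (chromosome II, 15025814 to 15025893), with a signal of 821 in the IDR list, 325 in replicate 1 and 503 in replicate 2. Its summit stood 77 bp upstream of the snoRNA gene and 144 bp from the nearest coding start, in the promoter of cmtr-1, which encodes a cap methyltransferase. M7.15 (chromosome IV) followed with 667, 239 and 418, in the promoters of klc-1, a kinesin light chain gene, and let-70, a ubiquitin-conjugating enzyme gene. F59C6.15 (chromosome I) had 628, 234 and 386. ZK994.7, in an intron of the peroxidasin gene pxn-1 and 5641 bp from any coding start, had 509, 211 and 293, and Y37E3.20 had 469, 200.5 and 271. Of the genes shown for their B box core, M106.6 had 320, 132 and 184 and C02F5.15 had 291, 144 and 155. The M106.6 summit stood 59 bp upstream of the gene and 3369 bp from the nearest coding start. The C02F5.15 summit stood 131 bp upstream of the gene, beyond the sequence shown and not at the marked word. It was nearer to a coding start, 98 bp away, and lay in the promoter of fbxl-1. The summits of the 5 strongest stood 47 to 80 bp upstream of the snoRNA gene.

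Shares of snoRNA genes with a peak are given by location. Outside protein-coding genes 44 of 124 had a peak (35.5%, interval 27.1 to 44.6), and in introns on the opposite strand 10 of 27 did (37.0%, interval 19.4 to 57.6). In introns on the strand of the host gene, from which a snoRNA can be processed out of the spliced intron, 23 of 142 had a peak (16.2%, interval 10.6 to 23.3). For tRNA genes the shares were 29.2% (93 of 319) outside coding genes, 28.0% (45 of 161) in introns on the host strand and 30.3% (37 of 122) on the opposite strand.

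The strongest peak beside a tRNA gene was weaker than the 8 strongest beside snRNA genes and the 3 strongest beside snoRNA genes. It lay beside the tRNA-Asn gene F41D9.t3 on X and had a signal of 524, with 210.1 in replicate 1 and 314 in replicate 2. C28G1.t1 (tRNA-Glu), whose summit lay 110 bp upstream, beyond the sequence shown, and only 13 bp from a coding start, had 512, 189 and 327. The divergent pair M02F4.t1 (tRNA-Gly) and M02F4.t2 (tRNA-Glu) shared a summit of 479, 159 and 314. Another divergent pair, C53C7.t1 and C53C7.t2 (both tRNA-Ser), shared one of 402, 159 and 245, and C33G3.t2 (tRNA-Lys) had 396, 149.7 and 243. All 5 peaks lay on X. Identical copies limit what these assignments mean, since F41D9.t3 is 1 of 18 identical genes and M02F4.t1 1 of 29.

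All but 1 of the tRNA isotypes with more than 1 gene had a peak at between 11 of 55 and 18 of 46 of their genes. Lysine (18 of 46, 39.1%) and glutamate (16 of 41) stood highest, and glycine (11 of 55) and histidine (4 of 20) lowest of these. Tryptophan had 2 of 12 (16.7%), the amber suppressor loci sup-5 (signal 173) and sup-7 (125), each 1 of 10 identical genes. Whether the other tryptophan genes are suppressor loci too was not looked up. The interval for lysine, 25.1 to 54.6, overlapped that for tryptophan, 2.09 to 48.4. The single selenocysteine tRNA gene, K11H12.t1, had a peak 52 bp upstream (172 in the IDR list, 67.3 in replicate 1 and 104 in replicate 2).

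Identical copies of a tRNA gene often differed in whether a peak was listed beside them. Among 57 families of tRNA genes with identical sequence, 44 had some genes with a peak and some without, 11 had none and 2 had all. The largest, 29 tRNA-Gly genes, had 6 with a peak. Genes with at least 1 identical copy had a peak in 32.6% of cases (153 of 469, interval 28.4 to 37.1), and genes whose sequence occurs once in 18.2% (26 of 143, interval 12.2 to 25.5). Reads that fall wholly within identical copies cannot be assigned to 1 gene, and the part this plays in the difference was not tested.

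Summits gathered just upstream of the genes in all 3 classes, within the 200 bp that the choice of members allows. The median offset from the annotated gene start was −49 bp for snoRNA genes (interval −56 to −44, 88 pairs of summit and gene), −37 bp for snRNA genes (−49 to −17, 25 pairs) and −21 bp for tRNA genes (−26 to −12, 180 pairs). The 100 bp before the gene held 81.8% of snoRNA, 72.0% of snRNA and 71.1% of tRNA offsets. Inside the gene lay 21.7% of tRNA summits, with a median gene length of 73 bp, 4.55% of snoRNA and 4.00% of snRNA summits. In a wider view of 500 bp on each side, the fullest 20 bp step was −60 to −40 for snoRNA (24 summits) and snRNA (9), and −40 to −20 for tRNA (56).

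**Figure D3:**
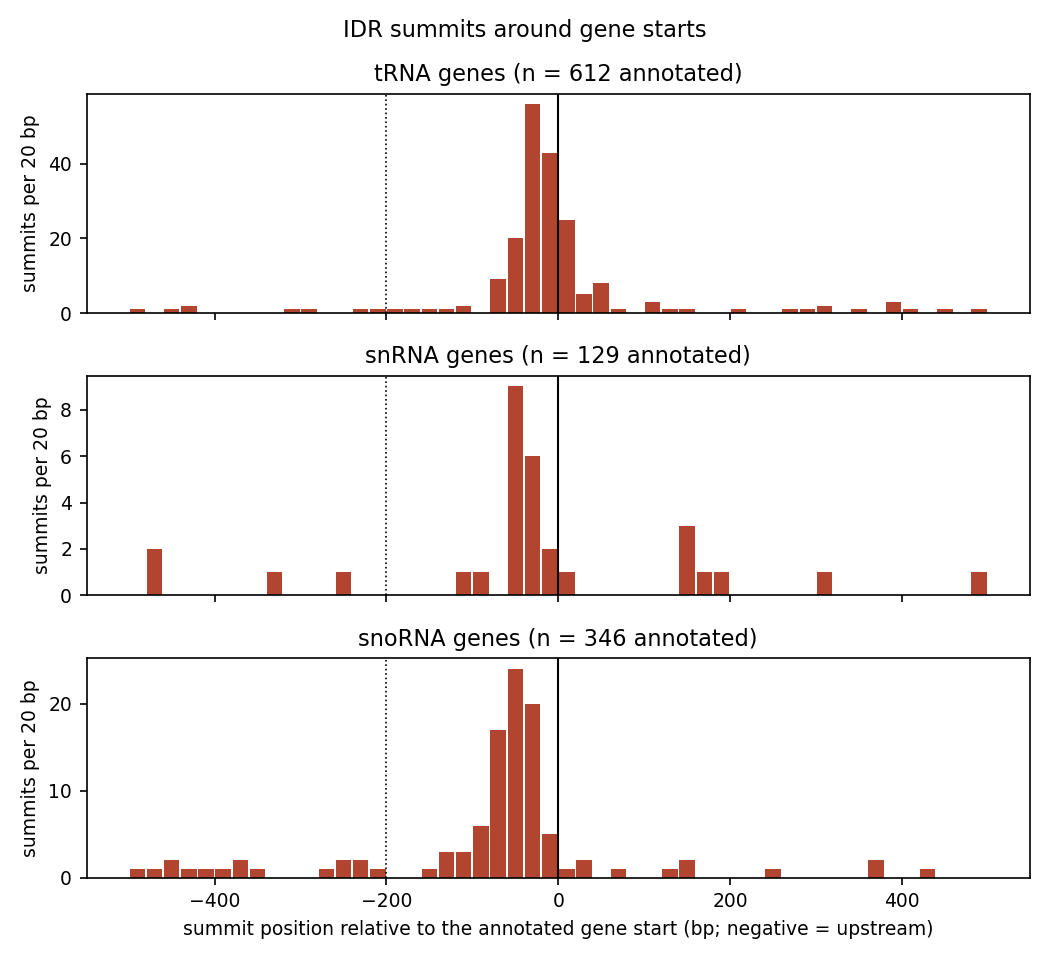
Number of IDR summits per 20 bp around the starts of tRNA, snRNA and snoRNA genes, along the gene strand; the solid line is the gene start and the dotted line the 200 bp limit upstream. Each class has its fullest step upstream of the start, with 56 tRNA, 9 snRNA and 24 snoRNA summits.

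Of the members, 3 lay closest inside the limit, beside F13G11.t1 (200 bp, signal 169), C25F6.30 (188 bp, 77.6) and B0350.t1 (144 bp, 181). Just outside it lay peaks 207 bp from the snoRNA gene W06H8.17 (signal 958, rank 46), 228 bp from the snoRNA gene C26C6.13 (341) and 237 bp from the tRNA gene C18A11.t2 (975, rank 42). No summit lay beside 3 or more such genes, and 15 lay beside 2. Of these, 12 lay beside a pair of tRNA genes, 6 of them divergent, 4 on the same strand and 2 convergent. Among all annotated divergent tRNA pairs up to 300 bp apart, 6 of 37 had a peak, each at both genes, against 7 of 17 convergent and 7 of 14 same-strand pairs with a peak at either gene. The intervals overlap, at 6.19 to 32.0% for divergent, 18.4 to 67.1% for convergent and 23.0 to 77.0% for same-strand pairs.

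Short words were counted in the 100 bp upstream of genes with and without a peak. The words were chosen with these sequences in view, so the counts are descriptions with no test. CGNAACCC, searched on both strands, stood before 12 of 20 snRNA genes with a peak and 34 of 109 without (31.2%), and before 15 of 88 snoRNA genes with a peak (17.0%) and 13 of 258 without (5.04%). The 12 include both sup-39 and mir-1831, which lies inside it and shares its summit. The snRNA intervals overlap, at 36.1 to 80.9 with a peak and 22.7 to 40.8 without. It occurred before 0.355% of 29304 protein-coding transcript starts. Among snRNA genes that have it, its median position was −62 bp with a peak and −61 bp without, both close to the same place. The snRNA contrast was not even across groups. Of the 18 sls-2 genes 10 have CGNAACCC, and it stood before 4 of the 8 with a peak. In the F32B5.9 group 11 of 12 genes have it and 2 had a peak. It stood before 2 of the 3 genes with a peak in the F54D8.7 group, where 5 of 24 have it. In the T08G5.11 group it stood before all 3, where 9 of 13 have it.

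The B box core GTTCNANNC, likewise searched on both strands, stood before 22 of 88 snoRNA genes with a peak and 13 of 258 without (5.04%), against 2.55% of protein-coding transcript starts. None of these windows overlapped an annotated tRNA gene, and no snoRNA gene had both GTTCNANNC and CGNAACCC on its strand. Read from the word, 37 of 60 snoRNA genes with either of them on the gene strand had a peak (61.7%, interval 48.2 to 73.9), and 51 of 286 with neither (17.8%, interval 13.6 to 22.8). In introns on the host strand, 13 of 17 with a word had a peak (76.5%, interval 50.1 to 93.2) and 10 of 125 without (8.00%, interval 3.90 to 14.2). Outside coding genes it was 14 of 25 with a word and 30 of 99 without (30.3%), with intervals that overlap.

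Before tRNA genes GAGAGA was found upstream of 67 of 179 genes with a peak (37.4%) and 42 of 433 without (9.70%), against 8.82% of protein-coding transcript starts. With a peak, 29 had the word in the 50 bp next to the gene and 38 at 51 to 100 bp. Without a peak these counts were 21 and 18. The median tRNA summit stood at −21 bp, so the word often lay farther from the gene than the summit. On X, 42 of 53 tRNA genes with the word had a peak (79.2%, interval 65.9 to 89.2), and 45 of 223 without it (20.2%, interval 15.1 to 26.1). On autosomes the counts were 25 of 56 with the word (44.6%, interval 31.3 to 58.5) and 67 of 280 without (23.9%, interval 19.1 to 29.4). Members beside tRNA genes had a median signal of 154 with the word (interval 133 to 173) and 123 without (110.3 to 133). Of the other words searched, TGTCNGC stood before 22 of 88 snoRNA genes with a peak and 7.36% without, and GGTGTG before 6.15% of tRNA genes with a peak and 2.54% without. These GGTGTG shares rest on 11 genes each, and their intervals overlap, at 3.11 to 10.7 and 1.27 to 4.50. TATATA stood before 1.68% of tRNA genes with a peak and 2.31% without, GGTGTG before 2 of 20 snRNA genes with a peak and 11 of 109 without, and GGTGTG before 5.68% of snoRNA genes with a peak and 4.65% without. Within 50 bp of the summit, over all 3 classes, GAGAGA occurred at 42.5% of members and 25.1% of other peaks on X, but at 16.2% of members and 29.3% of other peaks on autosomes.

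**Figure D4:**
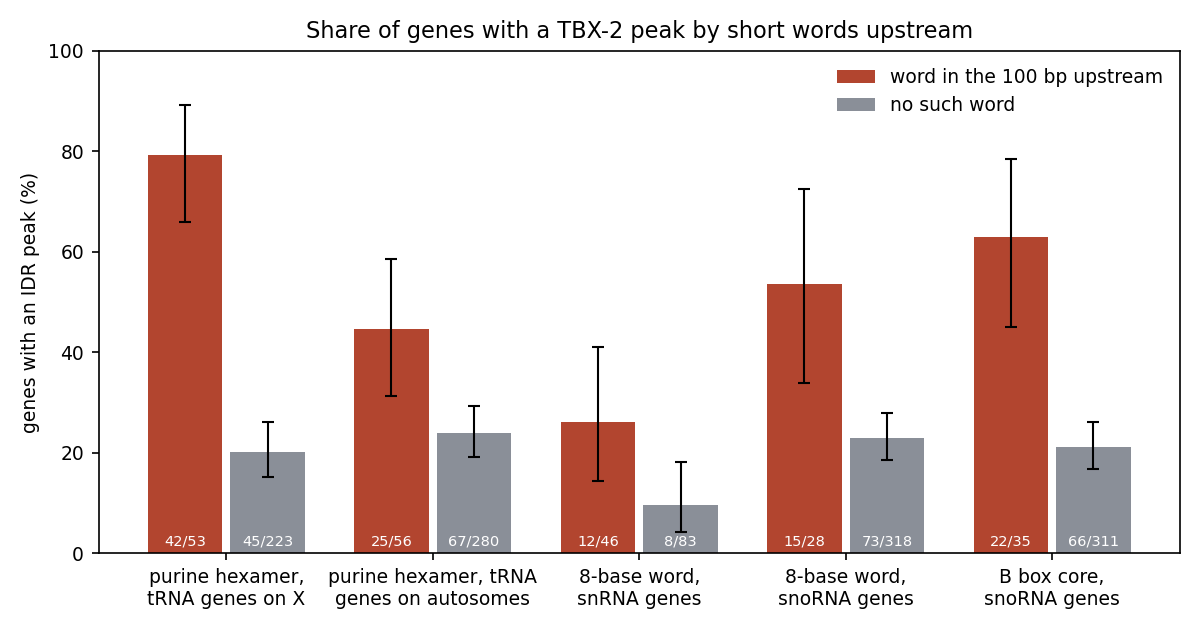
Share of genes with an IDR peak, in percent, among genes with (red, left) and without (grey, right) a short word in the 100 bp upstream, with 95% exact intervals and gene counts; the purine hexamer is GAGAGA, the 8-base word CGNAACCC and the B box core GTTCNANNC, all searched on both strands. tRNA genes on X had a peak in 79.2% of cases with GAGAGA and 20.2% without.

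A T-box site, GGTGTGA on either strand within 50 bp of the summit, was found at 2 of 278 members (0.719%, interval 0.0872 to 2.57) and 40 of 4106 other peaks (0.974%, interval 0.697 to 1.32). The shorter core GGTGTG, which every GGTGTGA contains, was found at 5.76% of members and 5.16% of other peaks. CGNAACCC lay in 8.99% of member windows and 0.755% of other windows, and GTTCNANNC in 14.7% and 2.41%. The choice of members favours GTTCNANNC, since 587 of 612 tRNA genes hold it inside the gene and 168 members lay beside a tRNA gene. A window that reaches into such a gene can therefore hold the word through that choice. CGNAACCC is favoured by the choice as well. It stood before 31.2% of snRNA and 5.04% of snoRNA genes without a peak, against 0.355% of protein-coding transcript starts. Neither contrast between windows is therefore a trait of the summits apart from the genes beside them. Median GC content of these 101-base windows was 51.5% at members and 45.5% at other peaks. The part that the choice of genes plays in this difference was not tested.

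The promoter of a protein-coding gene was taken to run from 1000 bp before to 200 bp after a transcript start. Promoters held 88 of the 278 member summits (31.7%, interval 26.2 to 37.5), against 56.7% of all IDR peaks. On autosomes the share was 37.7% of members and 61.1% of other peaks, and on X 18.4% of members and 46.9% of other peaks. Of those 88, 83 lay nearer to the start of the small RNA gene than to any coding start, a count that the 200 bp limit favours. Over all members the median distance was 33 bp to the small RNA gene start and 1222 bp to the nearest coding start. Other peaks had a median of 482.5 bp to a coding start.

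Over all members the median signal was 154 (interval 136 to 167), against 144 (141 to 148) for other peaks. By class it was 232 for peaks beside snRNA genes (interval 131 to 575), 191 beside snoRNA genes (159 to 215) and 133 beside tRNA genes (119 to 152). Signals above the median of the IDR list were found at 62 of 87 snoRNA members (71.3%), 16 of 24 snRNA members (66.7%) and 73 of 168 tRNA members (43.5%).

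Among the 4384 strongest regions of each replicate's own list, both replicates held 237 of the 278 members (85.3%, interval 80.5 to 89.2), against 80.2% of all IDR peaks. The autosomal members stood at 88.5% and those on X at 78.2%, where other peaks had 80.2% on autosomes and 78.8% on X. Both replicates went into the IDR list, so finding a member again in them is a description and not independent evidence. Replicate 2 gave the higher signal at 258 of the 270 members matched in both, and likewise at 3810 of 3990 other peaks. The median ratio of replicate 2 to replicate 1 was 1.56 at members and 1.62 at other peaks.

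**Figure D5:**
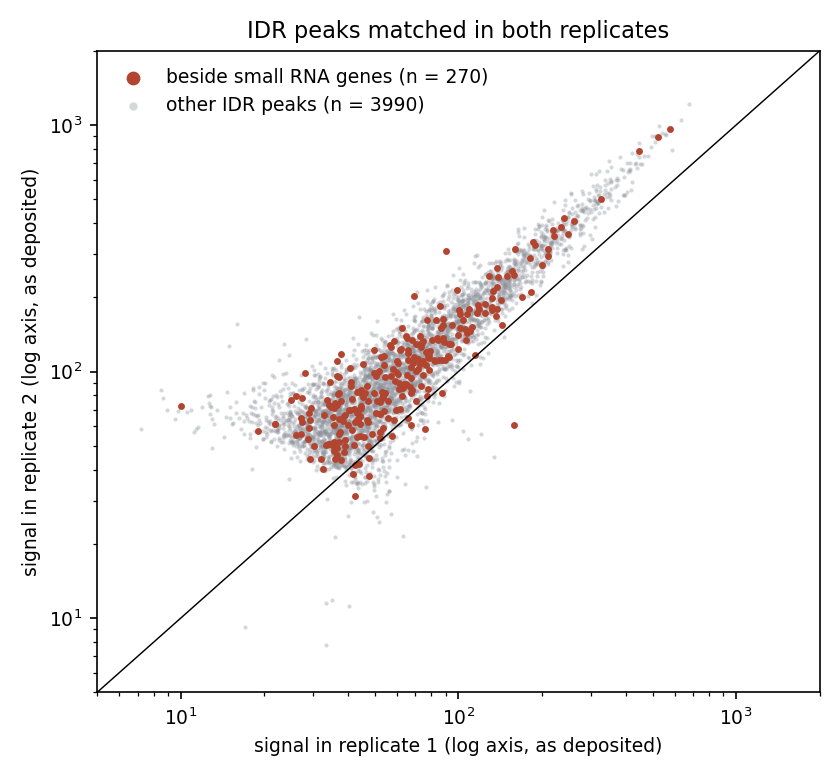
Signal of IDR peaks in replicate 1 and replicate 2 (both log axes), for 270 members in red and 3990 other peaks in grey that had a summit within 100 bp in both lists; the line marks equal values. Members lay among the other peaks, and 258 of the 270 were above the line, as were 3810 of the 3990 other peaks.

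Among members matched in both replicates, ranks differed most at 4 weak ones. F53F8.t1 (tRNA-Cys) ranked 19021 in replicate 1 and 2871 in replicate 2, and K08B5.t2 (tRNA-Glu) 7676 and 3710. The snoRNA gene T25D3.8 ranked 3106 and 6819, and H08J11.t3 (tRNA-Gln) 6496 and 3449. Their signals in the IDR list were 84.8 or lower, and the weakest member stood at 76.9. Members with no summit within 100 bp in a replicate's list, 5 in replicate 1 and 3 in replicate 2, have no rank difference. The strongest of them, beside F15G9.t1 and F15G9.t2, had a signal of 323 and no match in replicate 2.

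The proteins that make and process these RNAs were looked up as protein-coding genes with a promoter peak, of which all protein-coding genes had 15.6%. Across 6 lists, 31 of the 73 genes found in the annotation had one (42.5%, interval 31.0 to 54.6). For 24 of these 31 the strongest of their summits was shared with a neighbouring gene's promoter. How often this holds over all protein-coding genes with a promoter peak is not given here, so the count is a limit on assignment only. snoRNP proteins stood highest with 8 of 9, namely the methyltransferase gene fib-1 (signal 515), nol-58 (398), nol-56 (386), nola-3 (311), snu-13 (189) and the pseudouridine synthase gene dkc-1 (151), with the assembly ATPase genes ruvb-2 (374) and ruvb-1 (223). gar-1 had none. The list of Sm and LSm proteins, which ring the snRNAs, and of their SMN assembly factors had 12 of 17, namely snr-4 (604), snr-1 (319), lsm-3 (246), snr-2 (230.1), snr-6 (215), gut-2 (188), lsm-5 (179), lsm-7 (177), snr-3 (146), lsm-1 (139.7), lsm-6 (122) and the assembly factor smn-1 (85.2). Without the assembly factors it was 11 of 15 (73.3%, interval 44.9 to 92.2). Only the snr-4 summit was itself a member.

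The other 4 lists had shares whose intervals include the 15.6% of all genes. snRNP-specific proteins had 3 of 11 (27.3%), with the U5 snRNP genes prp-8 (370) and eftu-2 (194) and rnp-2 (170). RNA polymerase III with TFIIIB and TFIIIC had 3 of 12, with the TFIIIC gene tftc-1 (274), rpac-19, a subunit shared with polymerase I (155), and the largest subunit gene rpc-1 (98.3). tRNA processing and export had 4 of 17 (23.5%), with the Elongator gene elpc-2 (292), pus-1 (262), the tRNA ligase gene rtcb-1 (229) and the exportin gene xpo-3 (88.7). The snRNA activating protein complex had 1 of 7 (14.3%), snpc-3.4 (171).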

How the data were processed

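Peak lists from 2 anti-GFP ChIP-seq replicates were used as deposited on ce11. Per the notes the authors deposited with the samples, each list of 30000 regions derives from replicate or pooled alignments and a control, and the IDR list from both. For the aligner, caller, IDR threshold and depth: not given in the sources used here. Peak signal is the authors' value, on an unstated scale. The deposited −log10 q-value field takes 1 value, 4.01, over the IDR list and ranked nothing.

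Summits, counted from 1, were compared with Ensembl release 115 gene models, and gene names and tRNA isotypes came from RefSeq, which matched all 1087 small RNA genes by gene ID. Sequences came from the RefSeq WBcel235 genome. An IDR peak was matched to the nearest summit within 100 bp in a replicate's list. Shares carry 95% exact Clopper-Pearson intervals and medians order-statistic intervals. Python 3.11.15, pandas 2.3.3, numpy 2.4.6, scipy 1.17.1 and matplotlib 3.10.9 were used, and the functions were tested on simulated data.

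Members, lists and words were chosen with earlier results of these data known, and no test was made, since there is 1 group. The planned values were autosomal, and X was added because fewer than 200 members were found. Named are the 5 peaks of each class with the highest mean replicate rank and, of members matched in both replicates, the 4 whose ranks differ most. Also named are the members nearest the 200 bp limit, bound machinery genes, and small groups given in full. All other named genes, such as C52E4.8, sup-39 and those shown for their sequence, were chosen after their values were seen. Of 81 machinery names 8 were not found in the annotation. Lists on ce10 were not used here.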

Additional observations from a re-analysis of the deposited data

How the results depend on the processing

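The values of the autosomal members were recomputed with each replicate's strongest regions alone, with peaks above the list's median signal, with other distances, copies and promoters, and with X. Of 76 recomputed values 61 stayed within the 95% interval of the reported value, or within 1.5 times it for the count of machinery genes, and 15 did not. No median offset changed sign, but some intervals reached the gene start. The snRNA interval without replicate 2 ran from −49 to 5 bp, and the tRNA interval over peaks above the list's median signal from −30 to 0 bp.

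With 1 replicate left out, the median signal was 60.9 to 96.3 and the T-box share 0 to 0.529%, on each replicate list's own scale of signal. The share of members found in both replicates could not be given with 1 left out. Over peaks above the list's median signal, 10.4% of tRNA and 19.8% of snoRNA genes had a peak, the median signal was 209, 98.2% of members were among the strongest regions of both replicates, and the T-box share was 0, which allows up to 3.33%. At 500 bp 32.3% of snoRNA genes had a peak. With X the members made up 6.34% of peaks. Over tRNA genes whose sequence occurs once 19.8% had a peak. Narrower and wider promoters held 23.0% and 52.9% of members. Matching within 50 bp gave 82.7% in both replicates, and the core GGTGTG 5.76%.

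No paired analysis was possible because both samples belong to 1 group. Depth is unknown, reads wholly within identical gene copies cannot be assigned to 1 of them, the gene start is that of the annotation, and 3 machinery alternatives, the protein-coding shares over peaks above the median signal and the Sm and LSm count without assembly factors were chosen after seeing the data.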
